A study of Mus musculus with 8 samples.

Results

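The genes described here code for proteins of the contractile apparatus best known from smooth muscle: the muscle actins Acta1, Acta2, Actc1 and Actg2, the regulatory myosin light chain Myl9, the tropomyosins Tpm1 and Tpm2, and the actin-binding proteins Tagln, Tagln2 and Cnn1. They are 10 of the 18193 genes measured and are read by 20 of 45037 probe sets, a probe set being a group of short oligonucleotides on the array that reports on a transcript. A probe set was taken for a gene where the platform annotation gave it that gene's symbol and no other, and the probe set with the highest mean log2 level over all 8 arrays supplied the main value of the gene. The list was chosen by function, but with earlier results of these data known. The measured values behind the choice are the differences between the Jmjd2b knockdown and the control: there Tagln and Myl9 stood among the largest rises of the Jmjd2b knockdown, so their differences in that comparison are given as a description, without a test. Every p-value of the other genes comes from a model fitted to all 18193 genes and is not independent evidence for the choice of the list. Tests of Tagln and Myl9 in the Jmjd2c knockdown reuse the control arrays behind that choice and are not independent of it. In the comparison of the knockdowns with each other these genes are again given without a test.

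The samples were male mouse embryonic stem (ES) cells, cultured cells of the early embryo, of the agouti strain 129S4/Svjae, kept in medium with the cytokine LIF. The cells carried lentiviral short hairpin RNAs against Jmjd2b (3 arrays), against Jmjd2c (2 arrays) or, as control, against GFP (3 arrays), and were selected with puromycin and passaged before RNA was taken. All groups, the control included, were therefore infected, selected cells. The hairpin targets (Kdm4b and Kdm4c by their present symbols) code for enzymes that take methyl groups off histone H3, and the series asks what they do for ES cell identity. The labels do not say how many hairpins served each target or whether the arrays of a group came from separate infections, and p-values here measure no more than the spread between the arrays, which may be technical.

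Actin filaments and myosin slide past each other to make a muscle cell contract. In smooth muscle, phosphorylation of the regulatory light chain switches myosin on, tropomyosin lies along the filament, and calponin and transgelin bind to it. Many of these genes share a short promoter element, the CArG box, which binds serum response factor (SRF), and SRF acts there with myocardin or with the related cofactors Mrtfa and Mrtfb, which sense how much actin is unpolymerised. The same genes are used outside muscle, in stress fibres of fibroblasts and of spreading epithelial cells, while Tagln2 and several tropomyosin isoforms occur in many cell types.

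Since several of the genes changed together, the DNA before their transcript starts is shown first. RefSeq promoter windows (GRCm38.p6) were at hand for 8 of the 10 genes. For Tagln and Actg2 none was at hand. The CArG box was searched for in the 250 bases before the start, where 1 strand covers both because the box reads the same on either strand. A perfect CArG box lay before Acta1, Actc1 and Myl9, 3 of 8 windows, against 1.47% of 32851 windows of all genes. In the following stretches, read 5' to 3' on the strand of the gene, capitals mark that box. The stretch of Acta1 is chr8:123894776-123895025 (minus strand), that of Actc1 is chr2:114052876-114053125 (minus strand), and that of Myl9 is chr2:156775214-156775407 (plus strand). Each is flanking DNA that ends at the outermost RefSeq start of its gene.
Acta1: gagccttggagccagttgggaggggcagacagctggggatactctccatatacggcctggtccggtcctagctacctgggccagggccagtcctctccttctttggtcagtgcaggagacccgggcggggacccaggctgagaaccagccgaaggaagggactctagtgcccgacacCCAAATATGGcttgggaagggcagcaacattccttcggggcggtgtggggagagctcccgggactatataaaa
Actc1: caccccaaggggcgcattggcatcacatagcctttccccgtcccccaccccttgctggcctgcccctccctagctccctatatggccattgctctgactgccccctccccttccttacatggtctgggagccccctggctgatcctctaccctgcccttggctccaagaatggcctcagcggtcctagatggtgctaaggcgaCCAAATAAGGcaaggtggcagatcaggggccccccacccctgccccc
Myl9: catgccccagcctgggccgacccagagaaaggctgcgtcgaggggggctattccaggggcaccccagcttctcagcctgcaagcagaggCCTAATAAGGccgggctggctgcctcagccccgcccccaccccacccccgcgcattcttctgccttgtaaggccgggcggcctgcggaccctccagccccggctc
Counted from the transcript start of the window, the box began at base -73 in Acta1, at -47 in Actc1 and at -161 in Myl9. For Myl9 that start lies downstream of the outermost one, so the printed stretch ends at base -57 of this count. With 1 letter off allowed, Acta2 and Tpm1 had matches as well, so that 5 of 8 windows held one, against 18.6% of all windows. For these genes the window lies wholly (Tpm1) or in part (Acta2) inside a longer RefSeq transcript. Only the 30 bases round the match farthest from the start are printed, again with the match in capitals. They are chr19:34255438-34255467 (minus strand), with the match starting at base -84, and chr9:67049415-67049444 (minus strand), with the match starting at -221.
Acta2: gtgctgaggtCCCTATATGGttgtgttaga
Tpm1: gctcgggtccCCATATATAGtcatatccac
The MCAT element CATTCC, which binds TEAD factors, was searched on both strands and lay before 4 of the 8 genes (Acta1, Acta2, Tpm1 and Tagln2), against 12.6% of all windows. Tagln2, which did not rise in either knockdown, had 2 MCAT elements and no CArG box, even with 1 letter off. Its flanking stretch, chr1:172499996-172500245 (plus strand), is printed for comparison with the MCAT elements in capitals.
Tagln2: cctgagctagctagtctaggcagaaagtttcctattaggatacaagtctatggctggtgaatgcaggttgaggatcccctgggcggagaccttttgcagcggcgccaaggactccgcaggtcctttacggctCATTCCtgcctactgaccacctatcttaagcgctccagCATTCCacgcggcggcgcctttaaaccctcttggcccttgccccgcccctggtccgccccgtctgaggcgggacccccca
No match of either kind was found in the windows of Cnn1 and Tpm2, which says only that these letters do not occur there. A match in the sequence is a description and not evidence that a factor binds.

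**Figure D1:**
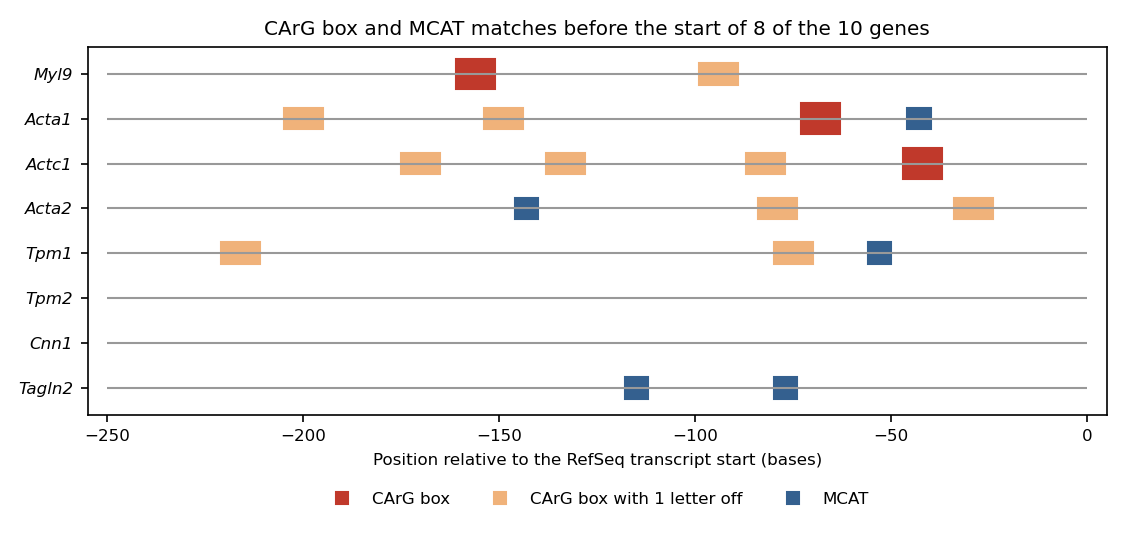
Matches in the 250 bases before the RefSeq transcript start of 8 of the 10 genes, with the position from the start in bases on the horizontal axis and 1 line per gene. Red blocks are perfect CArG boxes (Myl9, Acta1, Actc1), light blocks are CArG boxes with 1 letter off and blue blocks are MCAT elements on either strand; Tpm2 and Cnn1 have none.

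Each hairpin target was lowest where the label names it. Kdm4b had intensities of 50.3, 29.3 and 17.0 in the Jmjd2b knockdown, 245 and 285 in the Jmjd2c knockdown, and 421, 339 and 643 in the control, so that 6.89% of its control mean was left under its own hairpin. Kdm4c had 752, 799.98 and 650.5 in the Jmjd2b knockdown, 142 and 469 in the Jmjd2c knockdown, and 1332, 1300.1 and 1209.98 in the control, with 23.9% left under its own hairpin. Each target also read lower under the other hairpin, by log2 differences of -0.74 ± 0.31 for Kdm4b and -0.79 ± 0.32 for Kdm4c (SE), which did not pass the test (limma, adjusted p = 0.178 and 0.102). Each of 10 ES cell markers lay above the array median on all 8 arrays, and array medians ranged from 44.7 to 46.6. The arrays fell into 3 sets that share exact values more often (0.412% to 0.621% of values) than arrays of different sets do (at most 0.0798%), for an unknown reason. One set holds control arrays 1 and 2 and Jmjd2b knockdown array 2, which have 412 to 455 values at exactly 1. Another holds control array 3 and Jmjd2b knockdown array 1, and the last holds Jmjd2b knockdown array 3 with both Jmjd2c knockdown arrays. The Jmjd2c knockdown thus has no control in its own set, and set and knockdown cannot be told apart there. The 3' to 5' ratio of the array's actin control probes, which rises with RNA degradation, was 1.31 to 1.42 in the Jmjd2b knockdown, 1.43 to 1.48 in the Jmjd2c knockdown and 1.45 to 1.63 in the control. The same ratio of the Gapdh control probes overlapped between the groups, at 0.937 to 0.987, 0.943 to 0.987 and 0.936 to 0.98 in that order. The part of RNA quality in the results was not tested.

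In the Jmjd2b knockdown most of the contractile genes rose, several of them from dim signals in the control. Tagln and Myl9, which bear on the choice of the list, were higher by 4.90 and 4.73 on the log2 scale. Of the other 8 genes, 6 passed the test upward (limma, adjusted p under 0.05), namely Acta1, Actc1, Cnn1, Tpm1, Acta2 and Tpm2, and 0 passed it downward. For comparison, 11.5% of all 18193 genes passed upward and 12.9% downward. The single gene with an unadjusted p under 0.05 downward was Tagln2. The arrays of the 2 groups did not overlap for 6 of these 8 genes that were higher and 1 that was lower, as held for 20.9% and 23.8% of all genes. The median difference of the 8 genes was 2.21 on the log2 scale (3.19 with Tagln and Myl9), against -0.03 over all genes. In the Jmjd2c knockdown 6 of the 10 rose, namely Tagln, Myl9, Acta1, Actc1, Tpm1 and Acta2, and Tagln2 fell, where 4.28% of all genes rose and 5.25% fell. The arrays did not overlap for 7 genes that were higher, Actg2 among them, and 1 that was lower, against 17.4% and 21.2% of all genes. The median there was 1.46, against -0.02 over all genes. Of the 18 probe sets of the 8 genes, 10 passed upward and 0 downward in the Jmjd2b knockdown (limma; 9.23% and 8.06% of all probe sets did, and 2 of the 18 were lower at an unadjusted p under 0.05). Of all 20 probe sets, 7 rose and 2, both of Tagln2, fell in the Jmjd2c knockdown (2.77% and 2.97%). Both comparisons use the same 3 control arrays. Low values of Tagln and Myl9 on those arrays bear on the choice of the list, so their Jmjd2c tests are not independent of it. The Jmjd2c counts and median above include both genes. Of the other 8 genes, those that rose in the Jmjd2c knockdown were Acta1, Actc1, Tpm1 and Acta2. All differences are between group means of log2(intensity + 16), which understates the change of genes with dim controls. These are whole cultures, in which more cells making a transcript and more transcript per cell cannot be told apart.

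**Figure D2:**
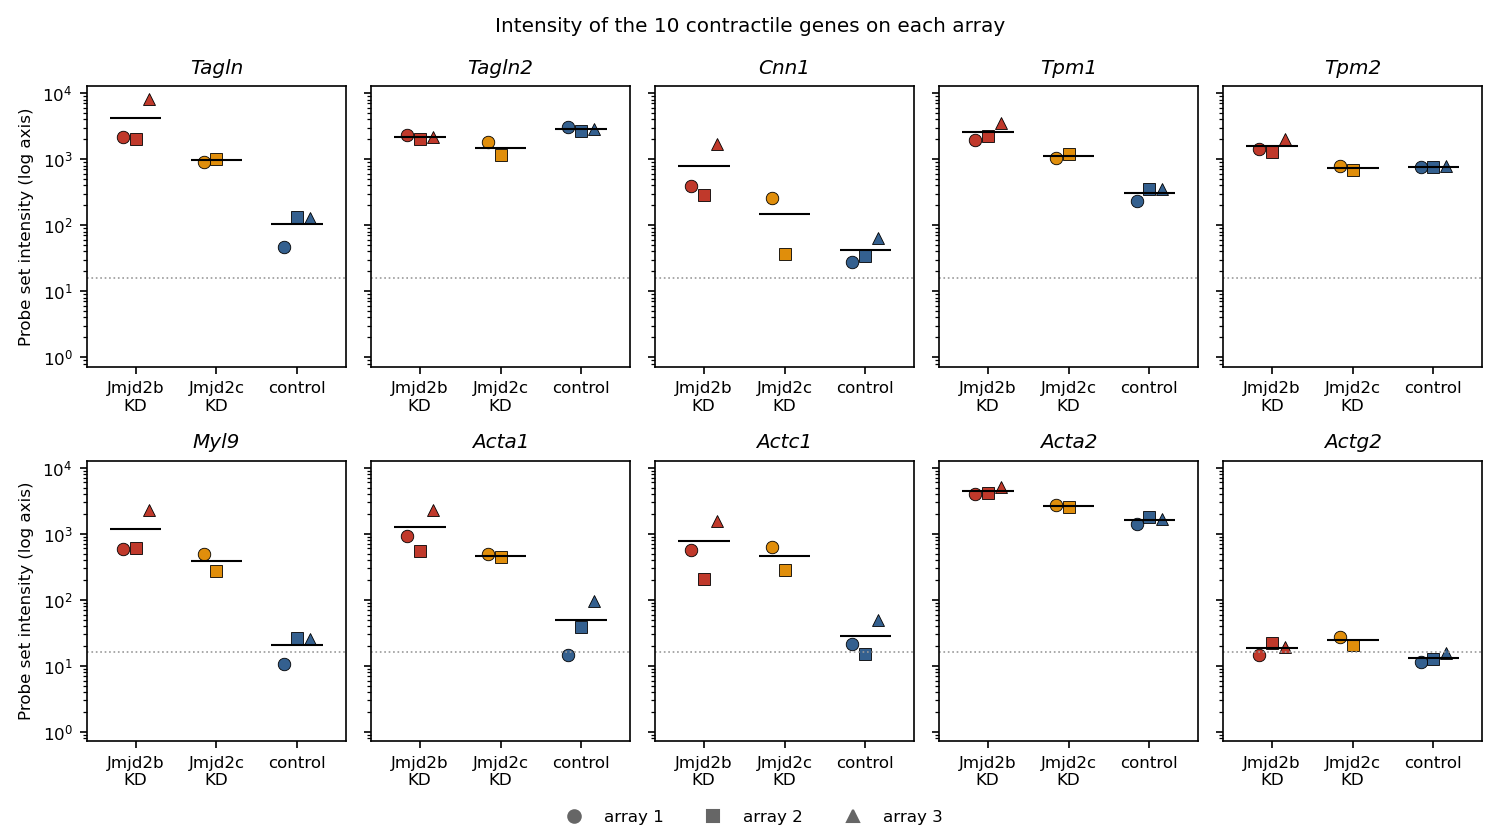
Intensity of the main probe set of each gene on each array (log axis), with the Jmjd2b knockdown, the Jmjd2c knockdown and the control from left to right. Symbols give the array number, black bars the group mean, and the dotted line the pseudocount of 16; heights can be compared within a panel but not between genes. Jmjd2b knockdown array 3 is the highest of all 8 arrays for 8 genes, and Tagln2 and Actg2 are the exceptions.

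Among the actins, Acta1, the actin of skeletal muscle, had intensities of 914, 557 and 2335 in Jmjd2b knockdown arrays 1, 2 and 3, of 494 and 439.9 in the Jmjd2c knockdown, and of 14.6, 38.2 and 96.4 in the control. All knockdown arrays lay above all control arrays, and the 3 control arrays themselves differed by 6.62-fold. The log2 difference was 4.24 ± 0.53 in the Jmjd2b knockdown (SE, n = 3 against 3; limma, adjusted p = 0.000471) and 3.08 ± 0.59 in the Jmjd2c knockdown (SE, n = 2 against 3; adjusted p = 0.0129). Actc1, the actin of heart muscle, read 567, 211 and 1546 in the Jmjd2b knockdown, 633 and 280.5 in the Jmjd2c knockdown, and 21.3, 15.0 and 48.9 in the control. The groups of knockdown arrays were again clear of the control, but they overlapped each other. Its log2 difference was 3.81 ± 0.60 in the Jmjd2b knockdown (SE; limma, adjusted p = 0.00158) and 3.38 ± 0.67 in the Jmjd2c knockdown (SE; adjusted p = 0.0148). Without control array 1 the Jmjd2c call of Actc1 was lost (3.29, adjusted p = 0.0538).

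Acta2, the actin of vascular smooth muscle, was read by 3 probe sets that disagree. The bright one, 1416454_s_at, had 3999, 4141 and 5172.5 in the Jmjd2b knockdown, 2774 and 2569.7 in the Jmjd2c knockdown, and 1403, 1805 and 1695 in the control. On this probe set the knockdown arrays were all above the control arrays, and the Jmjd2b arrays were all above the Jmjd2c arrays. Its differences were the smallest of the 3 actins that rose, at 1.43 ± 0.12 in the Jmjd2b knockdown (SE; limma, adjusted p = 8e-05) and 0.71 ± 0.13 in the Jmjd2c knockdown (SE; adjusted p = 0.0124). The suffix of its name marks probes that can also detect related transcripts, and muscle actin transcripts are closely alike. The other probe sets of Acta2 lay at the low end of the array. Probe set 1444105_at had 10.2, 10.5 and 19.0 in the Jmjd2b knockdown, 16.6 and 4.9 in the Jmjd2c knockdown, and 9.12, 10.6 and 17.3 in the control. Probe set 1456658_at lay between 9.21 and 15.9 on all 8 arrays. Neither followed the bright probe set: for 1444105_at the log2 difference was 0.04 under the Jmjd2b hairpin and -0.11 under the Jmjd2c hairpin, and for 1456658_at it was -0.02 and -0.09. Averaging the 3 probe sets cut the difference to 0.49 in the Jmjd2b knockdown (adjusted p = 0.0216) and ended the call in the Jmjd2c knockdown (0.17, adjusted p = 0.534). The rise of Acta2 therefore rests on 1 probe set that may pool several actins. Acta1 also has only 1 probe set, and its name, 1427735_a_at, carries a different suffix (_a rather than _s). The name of the Actc1 probe set, 1415927_at, carries none of these.

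Actg2, the actin of gut smooth muscle, stayed dim. Its probe set had 14.5, 22.2 and 19.3 in the Jmjd2b knockdown, 27.8 and 20.8 in the Jmjd2c knockdown, and 11.3, 12.6 and 15.7 in the control. The Jmjd2b arrays overlapped the control arrays and the Jmjd2c arrays lay just above them. Neither difference passed the test, at 0.24 ± 0.14 for Jmjd2b (SE; limma, adjusted p = 0.255; 95% interval -0.07 to 0.56) and 0.46 ± 0.16 for Jmjd2c (SE; adjusted p = 0.101; 95% interval 0.11 to 0.81).

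Myl9 codes for the light chain whose phosphorylation activates smooth muscle myosin. It had intensities of 592, 603 and 2337 in the Jmjd2b knockdown, 499 and 272 in the Jmjd2c knockdown, and 10.8, 26.5 and 25.4 in the control. All knockdown arrays lay above all control arrays, whose signals were near the pseudocount, so that the size of the difference depends on it. The log2 difference in the Jmjd2b knockdown was 4.73 ± 0.47 (SE), for which no test is given. In the Jmjd2c knockdown it was 3.41 ± 0.53 (SE, limma adjusted p = 0.00628), against the same control arrays that bear on the choice of the list.

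The tropomyosins, which stabilise actin filaments and govern access of myosin to them, parted from each other. Tpm1 had 1977, 2278 and 3574.5 in the Jmjd2b knockdown, 1044 and 1192 in the Jmjd2c knockdown, and 231, 354 and 348 in the control. The 3 groups did not overlap, with the Jmjd2c knockdown between the others. The log2 difference was 2.98 ± 0.22 in the Jmjd2b knockdown (SE; limma, adjusted p = 5.8e-05) and 1.82 ± 0.25 in the Jmjd2c knockdown (SE; adjusted p = 0.00425). The other bright probe sets of Tpm1 gave smaller differences. Of these, 1423049_a_at was brighter than the main probe set in the control (means 362.9 and 311.05) and dimmer in the Jmjd2b knockdown (1936 and 2610). The main probe set was thus picked through the knockdown arrays, which favours a larger difference. Probe set 1423049_a_at changed by 2.32 ± 0.20 and 1456623_at by 1.17 ± 0.15 in the Jmjd2b knockdown (SE; limma over all probe sets, adjusted p = 8.55e-05 and 0.000611). In the Jmjd2c knockdown 1423049_a_at changed by 1.14 ± 0.23 (SE; adjusted p = 0.0191), and 1456623_at, at 0.38 ± 0.17, did not pass (adjusted p = 0.246). The last, 1447713_at, was dim, between 10.9 and 33.3, and passed in neither knockdown (0.37 ± 0.18 for Jmjd2b and -0.03 ± 0.20 for Jmjd2c, SE). Averaging the 4 probe sets gave 1.71 and 0.83, both past the test (adjusted p = 0.000138 and 0.0162). Tpm1 makes many isoforms from alternative exons, and these probe sets were not assigned to isoforms.

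Tpm2 rose in the Jmjd2b knockdown and was near the control in the Jmjd2c knockdown. Its main probe set had 1408, 1304 and 2001 in the Jmjd2b knockdown, 789.7 and 677 in the Jmjd2c knockdown, and 756, 767 and 786 in the control. The control arrays lay within 1.04-fold of each other, and the Jmjd2c arrays lay on either side of them. The log2 difference was 0.99 ± 0.15 in the Jmjd2b knockdown (SE; limma, adjusted p = 0.00141) and -0.07 ± 0.17 in the Jmjd2c knockdown (SE; adjusted p = 0.854; 95% interval -0.45 to 0.31). Probe sets 1425028_a_at and 1449577_x_at rose by 1.09 ± 0.17 and 0.99 ± 0.16 in the Jmjd2b knockdown (SE; limma over all probe sets, adjusted p = 0.00155 and 0.00195). The remaining probe set, 1419739_at, did not follow: it had 137, 97.0 and 115 in the Jmjd2b knockdown, 124 and 110.2 in the Jmjd2c knockdown, and 107, 105 and 134 in the control (log2 difference 0.01 ± 0.16, SE, for Jmjd2b). It is also the only one of the 4 whose name carries neither an _a nor an _x suffix.

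**Figure D3:**
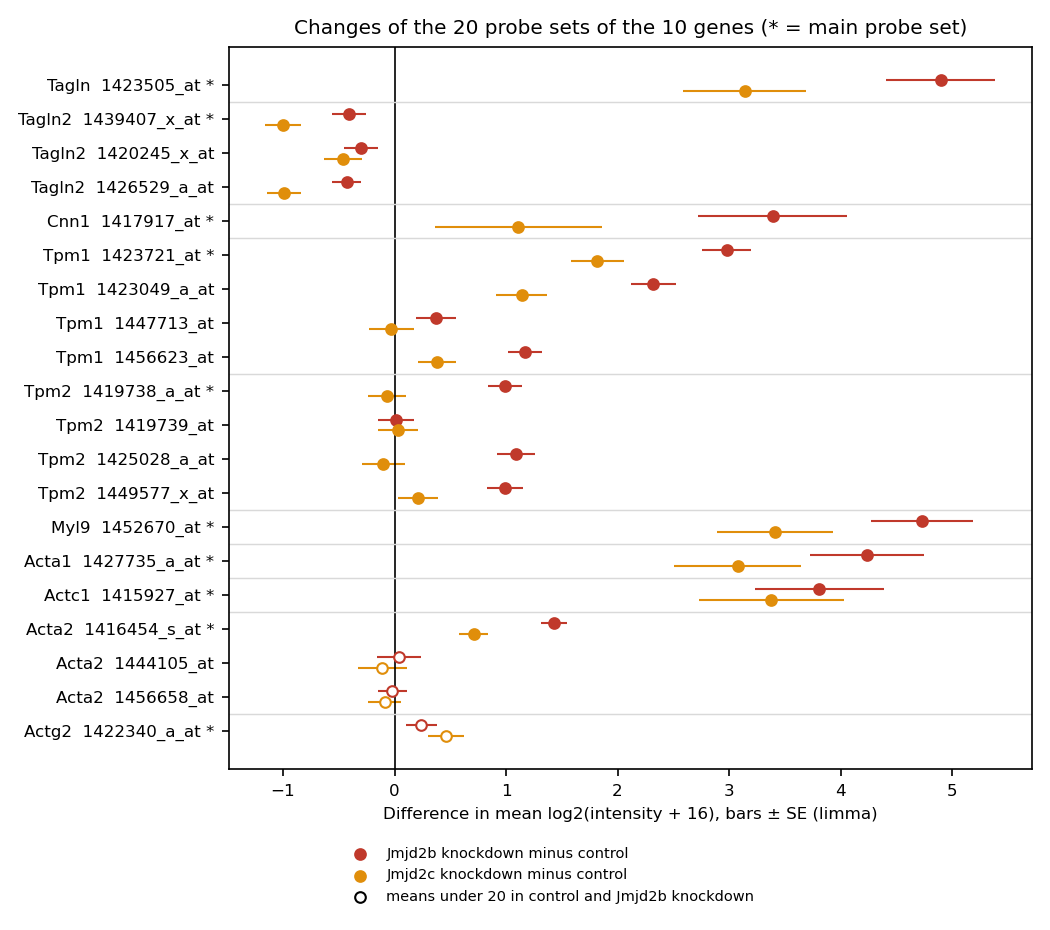
Log2 differences of all 20 probe sets of the 10 genes against the control, red for the Jmjd2b knockdown and orange for the Jmjd2c knockdown, with bars of ± 1 SE from limma; open symbols are probe sets with means under 20 in both the Jmjd2b knockdown and the control, and stars mark the main probe set. The 3 probe sets of Acta2 disagree, as do the 4 of Tpm2, while the 3 of Tagln2 all lie below 0.

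Tagln (transgelin, SM22), an actin cross-linking protein and an early marker of smooth muscle, had 2199, 1994 and 8213 in the Jmjd2b knockdown, 917 and 1011 in the Jmjd2c knockdown, and 46.9, 135 and 129 in the control. The 3 groups were apart, and Jmjd2b knockdown array 3 stood 3.92 times above the mean of the other 2 arrays of its group. The log2 difference in the Jmjd2b knockdown was 4.90 ± 0.50 (SE), for which no test is given. Without array 3 it was 4.24. In the Jmjd2c knockdown it was 3.14 ± 0.56 (SE, limma adjusted p = 0.00999), against the same control arrays that bear on the choice of the list. The Jmjd2c call of Tagln was lost when the arrays with 412 to 455 values at exactly 1 were set off from the others, with 7 to 11, as a block (2.58, adjusted p = 0.0514), as was that of Acta2 (0.64, adjusted p = 0.0606).

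Tagln2, a relative of Tagln that many non-muscle cells make, went the other way. It had 2301, 2033 and 2139 in the Jmjd2b knockdown, 1806 and 1136 in the Jmjd2c knockdown, and 3105, 2654 and 2879 in the control. The 3 groups were apart, with the control highest and the Jmjd2c knockdown lowest. It fell in the Jmjd2c knockdown, with a log2 difference of -1.0 ± 0.17 (SE; limma, adjusted p = 0.00806). In the Jmjd2b knockdown the difference of -0.41 ± 0.15 (SE) did not pass (adjusted p = 0.0718). With the replicate number as a block, which the check of pairing allowed for these groups, it passed (-0.41, adjusted p = 0.025). The Tagln2 difference also passed with only the Jmjd2b knockdown and the control in the fit (adjusted p = 0.00365), where the spread between the Jmjd2c arrays does not enter. Without either Jmjd2c knockdown array it stayed at -0.41. The bright probe set 1426529_a_at had differences of -0.43 ± 0.13 and -0.99 ± 0.15 in the Jmjd2b and Jmjd2c knockdowns, and the dim 1420245_x_at had -0.30 ± 0.15 and -0.46 ± 0.17 (SE).

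Cnn1, smooth muscle calponin, which restrains the myosin motor on actin, had the largest standard error of the 10 genes in each comparison. It had 389, 283 and 1683 in the Jmjd2b knockdown, 262 and 37.2 in the Jmjd2c knockdown, and 27.3, 34.7 and 65.1 in the control. The Jmjd2b arrays were all above the control, while Jmjd2c array 2 lay within the range of the control arrays. The log2 difference was 3.39 ± 0.69 in the Jmjd2b knockdown (SE; limma, adjusted p = 0.00597) and 1.11 ± 0.77 in the Jmjd2c knockdown (SE; adjusted p = 0.439; 95% interval -0.61 to 2.84). The Jmjd2c value rests on array 1: it was 2.31 without array 2 and -0.08 without array 1. Array 2 was also the one with more Kdm4c left (469, against 142 in array 1), and whether these facts are linked was not tested.

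The Jmjd2c and Jmjd2b knockdowns were also compared directly. For 8 of the 10 genes every Jmjd2c array lay below every Jmjd2b array, where 13.7% of all genes did so. The exceptions were Actc1 and Actg2. Tagln and Myl9 are among the 8. Their high Jmjd2b values bear on the choice of the list, which favours lower values elsewhere, so both are given here without a test. Only Tpm2 passed the test, with a log2 difference of -1.06 ± 0.17 (SE; limma, adjusted p = 0.0326), where 0.33% of all genes passed downward and 0.137% upward. Of the 20 probe sets, 2, both of Tpm2, passed downward and 0 upward (limma; 0 upward also at an unadjusted p under 0.05), where 0.253% and 0.0777% of all probe sets did. That call was lost without any of the 3 control arrays or without Jmjd2b array 1 or 2 (adjusted p = 0.0642 to 0.091), although the difference stayed between -1.18 and -1.06. Leaving out Jmjd2c array 1 or 2 leaves 1 array in that group, so only the sizes of differences are given here for those fits. Acta2 had -0.72 ± 0.13 (adjusted p = 0.0501) and Tpm1 -1.17 ± 0.25 (adjusted p = 0.0755). For Tagln the difference was -1.76 ± 0.56, and it was -1.11 without Jmjd2b array 3. For Myl9 it was -1.32 ± 0.53. For Cnn1 it was -2.28 ± 0.77 (95% interval -4.00 to -0.55) and for Tagln2 -0.58 ± 0.17 (-0.95 to -0.21). Acta1 had -1.16 ± 0.59, Actc1 -0.43 ± 0.67 and Actg2 0.22 ± 0.16, with intervals that include 0. Single arrays moved several of these sizes. Without Jmjd2b array 3 the difference was -0.67 for Myl9 and -0.60 for Acta1. Without Jmjd2c array 1 it was -3.47 for Cnn1 and -0.91 for Tagln2, and without Jmjd2c array 2 it was -1.08 and -0.25. Upward, 0 of the 10 passed (limma), and 0 had an unadjusted p under 0.05.

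The rise in the Jmjd2b knockdown was uneven across its arrays. Array 3 was the highest of all 8 arrays for each of the 8 genes named above as higher, which held for 29.1% of the 2097 genes that rose and for 51% of the 149 that rose by at least 2 on the log2 scale. The excess of array 3 over the mean of arrays 1 and 2 was 5.01-fold for Cnn1, 3.98-fold for Actc1, 3.92-fold for Tagln, 3.91-fold for Myl9 and 3.17-fold for Acta1. It was 1.68-fold for Tpm1, 1.48-fold for Tpm2 and 1.27-fold for Acta2. Among the 149 strongly risen genes, 14 exceeded 2-fold by this measure, and the first 5 in order of size were these contractile genes. This pattern was noticed in the data and carries no test. Array 3 had the lowest remaining Kdm4b of the group (17.0, against 50.3 and 29.3 in arrays 1 and 2), and it belongs to the set of arrays that holds the Jmjd2c knockdown. Neither was tested as a source of the excess. Without array 3 the 6 tested genes that rose were still called, with log2 differences between 0.80 for Tpm2 and 3.68 for Acta1. Within the set of Jmjd2b array 2 and control arrays 1 and 2, the differences were 3.82 for Acta1, 2.92 for Tpm1, 2.74 for Actc1, 2.67 for Cnn1 and 1.37 for Acta2, and Tpm2 lost its call (0.76, adjusted p = 0.0585). In the set of control array 3, Jmjd2b array 1 read 2199 against 129 for Tagln and 592 against 25.4 for Myl9.

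Patterns over the 8 arrays were compared by Pearson's correlation of log2 levels. These values describe the arrays only, since all genes share the same 3 groups and any gene that differs between them correlates. Among 9095 other genes above the median level, the closest to Tagln was Tpm1 (r = 0.993). Outside the contractile list the closest to Tagln were Cnn2 (0.990), Cfl1 (0.990), Plk2 (0.986), Hs6st2 (0.985) and Rsu1 (0.985). Cnn2 is a calponin of non-muscle cells and Cfl1 is cofilin, which severs actin filaments. Outside the list the closest to Myl9 were Dtx2 (0.991), Cnn2 (0.989), Vgll3 (0.986), Zfp608 (0.985) and Emg1 (0.985). Within the list, Tagln, Myl9, Acta1, Acta2 and Tpm1 correlated with each other at 0.95 to 0.99. Actc1 (0.93 with Tagln), Cnn1 (0.88) and Tpm2 (0.79) followed Tagln less closely, Actg2 was at 0.59 and Tagln2 was at -0.53.

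Other genes of smooth muscle moved in part. Of 17 further smooth muscle genes measured, 6 passed upward and 3 downward in the Jmjd2b knockdown, and 2 each way in the Jmjd2c knockdown, with medians of -0.04 and 0.07. Over all genes the shares were 11.5% upward and 12.9% downward for Jmjd2b and 4.28% and 5.25% for Jmjd2c. Fhl2, a LIM protein that binds SRF, rose by 1.97 ± 0.17 in the Jmjd2b knockdown (SE; limma, adjusted p = 8.27e-05). Csrp1, another LIM protein, changed by 1.34 ± 0.15, and caldesmon, Cald1, which inhibits myosin on actin, by 1.78 ± 0.21. In the Jmjd2c knockdown Fhl2 changed by 0.93 ± 0.19 and the actin-associated Pdlim7 by 1.04 ± 0.23 (SE; adjusted p = 0.0155 and 0.0226), while the muscle intermediate filament Des fell by 1.22 ± 0.16 (adjusted p = 0.00398). Of the 17 genes, 10 lay above the array median on all arrays and 4 below it on all arrays. Smtn (smoothelin), a protein of contractile smooth muscle, was among those that rose in the Jmjd2b knockdown, by 0.90 ± 0.21 (SE; limma, adjusted p = 0.0127). The 3 that fell there were Des (-0.83 ± 0.15), Ppp1r14a (-0.90 ± 0.14) and Synpo2 (-0.60 ± 0.17), with limma adjusted p of 0.00281, 0.00128 and 0.0289. Ppp1r14a also fell in the Jmjd2c knockdown (-0.67 ± 0.15, limma adjusted p = 0.0249). Myh11, the smooth muscle myosin heavy chain, was under 16 on all 8 arrays (6.62 to 13.5), and Myocd, Lmod1 and Kcnmb1 were under the array median on all of them. Myocd, which codes for myocardin, lay between 10.4 and 29.3.

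SRF itself and its actin-sensing cofactors rose in the Jmjd2b knockdown, where 3 of 7 genes of this list passed and 0 fell (limma; 0 also at an unadjusted p under 0.05). Over all genes 11.5% passed upward and 12.9% downward there. The median difference of the 7 genes was 0.09. Srf had 619, 661 and 799.95 in the Jmjd2b knockdown, 628 and 309 in the Jmjd2c knockdown, and 222, 365 and 330.1 in the control. The Jmjd2b arrays were clear of the control, and Jmjd2c array 2 was not. The log2 difference was 1.16 ± 0.26 in the Jmjd2b knockdown (SE; limma, adjusted p = 0.0087) and 0.54 ± 0.29 in the Jmjd2c knockdown (SE; adjusted p = 0.296). Mrtfb changed by 0.58 ± 0.13 and Mrtfa by 0.55 ± 0.14 in the Jmjd2b knockdown (adjusted p = 0.0101 and 0.021). In the Jmjd2c knockdown they had 0.52 ± 0.15 and 0.39 ± 0.16 (adjusted p = 0.053 and 0.178). There 0 of the 7 passed in either direction (limma), while 2 had an unadjusted p under 0.05 upward and 0 downward. Of all genes 4.28% passed upward and 5.25% downward in that comparison, and the median of the 7 was 0.19. The ETS cofactors Elk1, Elk3 and Elk4 and the MRTF repressor Scai had differences between -0.40 and 0.19 and did not pass in either knockdown.

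Some non-muscle relatives of the 10 genes rose too. Of 13 measured, 8 rose and 1 fell in the Jmjd2b knockdown and 2 rose and 1 fell in the Jmjd2c knockdown, with medians of 0.28 and 0.19. Over all genes 11.5% rose and 12.9% fell for Jmjd2b, and 4.28% rose and 5.25% fell for Jmjd2c. The tropomyosin Tpm4 had 2223, 2356 and 2829.5 in the Jmjd2b knockdown, 1166 and 1583 in the Jmjd2c knockdown, and 860.3, 804 and 786 in the control. Its log2 difference was 1.57 ± 0.13 and 0.72 ± 0.15 in the 2 knockdowns (SE; limma, adjusted p = 7.88e-05 and 0.0163). The calponin Cnn2 changed by 1.86 ± 0.25 and 1.33 ± 0.28 (adjusted p = 0.000676 and 0.0178), and the light chain Myl12a by 0.54 ± 0.08 in the Jmjd2b knockdown (adjusted p = 0.00114). Myh14, a non-muscle myosin heavy chain, was the gene that fell in both knockdowns. Its log2 difference was -1.48 ± 0.22 for Jmjd2b and -0.97 ± 0.25 for Jmjd2c (limma, adjusted p = 0.00127 and 0.0393).

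**Figure D4:**
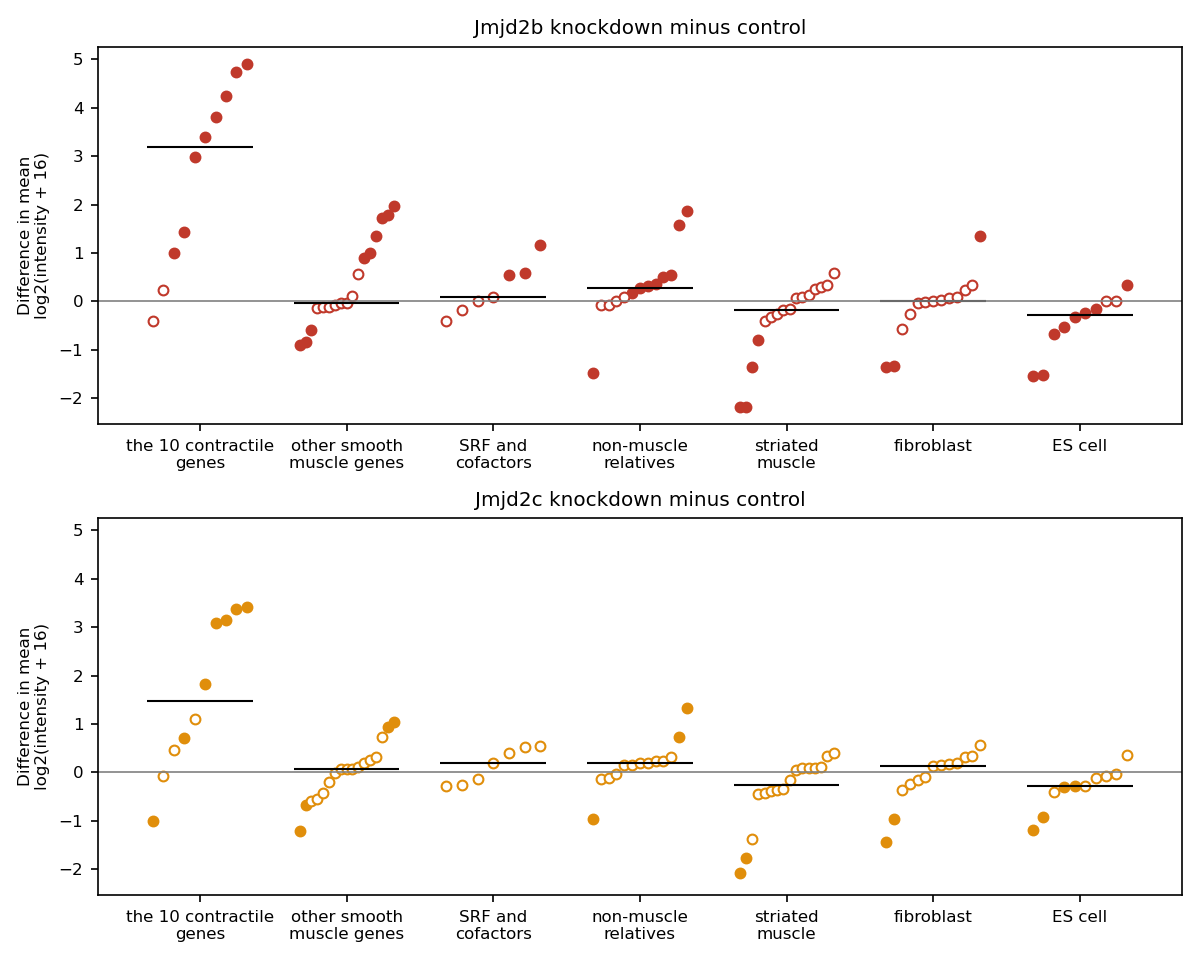
Log2 differences against the control (vertical axis) of the 10 contractile genes and of 6 other gene lists, 1 point per gene and a black bar at the list's median, for the Jmjd2b knockdown above and the Jmjd2c knockdown below. Filled points passed limma at an adjusted p under 0.05 over all genes. Among the 10 genes Tagln and Myl9 bear on the choice of the list, so their filled points in the Jmjd2b panel are no test. Their points in the Jmjd2c panel rest on the same control arrays. The 10 genes have medians of 3.19 and 1.46, and those of the other lists lie between -0.29 and 0.28.

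Of 16 markers of heart and skeletal muscle, which make several of these proteins, 0 rose in either knockdown (limma; 0 also at an unadjusted p under 0.05), and 4 and 2 fell in the Jmjd2b and Jmjd2c knockdowns. Over all genes 11.5% and 4.28% rose and 12.9% and 5.25% fell. Their summed intensity was 607 to 808 in the Jmjd2b knockdown, 539 to 919 in the Jmjd2c knockdown and 1158 to 1423 in the control. Without Myl7, Myl4 and Tnnt1, which carry most of that difference, the sum of the other 13 was 469 to 599.8 in the Jmjd2b knockdown, 448 to 517 in the Jmjd2c knockdown and 471 to 512 in the control. The atrial light chains Myl4 and Myl7 fell in both knockdowns, with log2 differences of -2.18 ± 0.25 and -2.18 ± 0.43 in the Jmjd2b knockdown, and of -1.77 ± 0.28 and -2.07 ± 0.48 in the Jmjd2c knockdown (SE; limma, adjusted p between 0.000321 and 0.0266). The slow troponin Tnnt1 fell by 1.36 ± 0.36 in the Jmjd2b knockdown (adjusted p = 0.0209) and had -1.37 ± 0.40 in the Jmjd2c knockdown (adjusted p = 0.0618). Myod1 was under 16 on all arrays, and Myog, Myh7, Tnnt2, Tnni3 and Tnni1 were under the array median on all of them.

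Fibroblasts, used as feeder layers for ES cells, also express Acta2 and Tagln; the labels do not say whether feeders were present. Of 13 fibroblast markers outside the contractile list, Col1a1 rose and 2 fell in the Jmjd2b knockdown, and 0 rose and 2 fell in the Jmjd2c knockdown (limma; 1 upward at an unadjusted p under 0.05). The shares of all genes were again 11.5% upward and 12.9% downward for Jmjd2b, and 4.28% and 5.25% for Jmjd2c. Their summed intensity was 736 to 753 in the Jmjd2b knockdown, 749 to 834.5 in the Jmjd2c knockdown and 934 to 1021 in the control. That fall was carried by Pdgfrb and Thy1, which were set aside after their values were seen. The other 11 summed to 569 to 576 in the Jmjd2b knockdown, 549.9 to 567 in the Jmjd2c knockdown and 471 to 517 in the control. Their sum, though not each gene, was thus higher on every knockdown array. Postn was under 16 on all arrays, and Col3a1, Col6a1, Pdgfra, Dcn, Lum, Twist2 and Fap were under the array median on all. The collagen gene Col1a1 had 47.4, 50.4 and 69.9 in the Jmjd2b knockdown, 25.0 and 26.4 in the Jmjd2c knockdown, and 12.5, 17.7 and 7.34 in the control, and its log2 difference was 1.34 ± 0.17 (SE; limma, adjusted p = 0.000603) and 0.57 ± 0.19 (adjusted p = 0.102). Thy1 fell by 1.33 ± 0.24 in the Jmjd2b knockdown and fell by 1.44 ± 0.27 in the Jmjd2c knockdown, and Pdgfrb fell by 1.36 ± 0.21 and fell by 0.96 ± 0.24 (SE; adjusted p between 0.00156 and 0.0339). The part of fibroblasts or other muscle cells in the rise of the contractile genes was not tested.

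Most ES cell markers moved against the contractile genes: 7 of 10 fell and 1 rose in the Jmjd2b knockdown, and 4 fell and 0 rose in the Jmjd2c knockdown (limma; 1 upward at an unadjusted p under 0.05). Over all genes 12.9% fell and 11.5% rose for Jmjd2b, and 5.25% fell and 4.28% rose for Jmjd2c. Sall4 rose in the Jmjd2b knockdown, by 0.33 ± 0.09 (SE, limma adjusted p = 0.0266). Pou5f1 and Utf1 passed in neither knockdown, with differences between -0.07 and 0.01. The log2 difference of Klf4 was -1.54 ± 0.10 in the Jmjd2b knockdown and -1.20 ± 0.11 in the Jmjd2c knockdown, and that of Esrrb was -1.53 ± 0.12 and -0.93 ± 0.13 (SE; limma, adjusted p between 3.41e-05 and 0.00472). Zfp42 fell by 0.54 ± 0.06 in the Jmjd2b knockdown, and Tdgf1 fell by 0.29 ± 0.06 in the Jmjd2c knockdown (SE; adjusted p = 0.000372 and 0.0154). The summed intensity of these markers was 53898 to 56794 in the Jmjd2b knockdown, 57557 to 58584 in the Jmjd2c knockdown and 68977 to 71027 in the control. Whether these shifts bear on the contractile genes was not tested.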

How the data were processed

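RNA of 8 samples was measured on 1 array each (3 Jmjd2b knockdown, 2 Jmjd2c knockdown, 3 control), grouped by sample title. Per the labels' protocols, biotin-labelled cRNA was made from total RNA by the array maker's method. The deposited values are linear intensities, 1 per probe set; the steps by which the authors summarised, background-corrected and scaled them are not given in the sources used here. Precision is limited by the number of arrays.

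The platform annotation gave exactly 1 symbol to 34945 of 45101 probe sets, several to 932 and none listed to 9160 (64 are array controls); the gene identifiers of 34741 probe sets matched RefSeq (GRCm38.p6). The authors' intensities were taken as deposited, as log2(value + 16), without a filter. All 8 arrays entered 1 fit of group means, in limma 3.58.1 (R 4.3.3; lmFit, eBayes with trend), two-sided, with Benjamini-Hochberg adjustment over 18193 genes, or over 45037 probe sets for single probe sets. The design assumed intensities and was kept. The fit was tested on simulated data. Tables and figures were made with Python 3.11.15, pandas 2.3.3 and matplotlib 3.10.9.

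The 10 genes and the 6 lists were chosen with earlier results of these data known. Named besides the 10 genes are the hairpin targets, the 3 genes of each list with the smallest p per knockdown, all SRF cofactors, and the 5 genes most correlated with Tagln and with Myl9. Smtn, Ppp1r14a, Synpo2, Sall4, Pou5f1, Utf1 and genes of a list that stayed dim, Myocd among them, were named after their values were seen.

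Deviations from group means correlated at 0.176, 0.111 and 0.116 across genes for same-numbered Jmjd2b knockdown and control arrays, and at -0.127 to 0.0164 otherwise. By the threshold of 0.1 the numbers were taken to allow a pairing of these groups, which the labels do not state. The main fit used no pairing. Between the knockdowns, arrays with different numbers (Jmjd2b array 3 and Jmjd2c array 1) also reached 0.166. Alternatives were the pseudocount, a filter on dim genes, quantile normalization, the choice of probe sets, the groups fitted, blocks for replicate number and array type, and each array left out.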

Additional observations from a re-analysis of the deposited data

How the results depend on the processing

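Leaving out all probe sets with an _a, _s or _x suffix left 7 of the 10 genes. Of these, 5 rose in the Jmjd2b knockdown, 0 fell in the Jmjd2c knockdown and 0 differed downward between the knockdowns. It turned Acta2 to -0.02 and -0.09 in the Jmjd2b and Jmjd2c knockdowns, and Tpm2 to 0.03 in the Jmjd2c knockdown and to 0.02 between the knockdowns. Within the arrays with only 7 to 11 values at exactly 1, which hold 1 control, 2 genes rose in the Jmjd2b knockdown; 0 rose, 0 fell and 0 differed between knockdowns for Jmjd2c. There the samples are fewer, and values were 4.88 for Tagln and 3.88 for Actc1 in the Jmjd2b knockdown and 3.22 for Myl9 and 2.10 for Acta1 in the Jmjd2c knockdown. With the replicate number as a block, 1 gene (Tagln2) fell in the Jmjd2b knockdown, as with only those 2 groups fitted (1). For the Jmjd2c knockdown, where the pairing is not established, the block gave 2 lower genes against the Jmjd2b knockdown (Tpm1 and Tpm2), a Tpm2 value of 0.03 against the control and an Actc1 value of 0.08 between the knockdowns; it changed no other call. The number of genes lower in the Jmjd2c than in the Jmjd2b knockdown, 1 as reported, was 2 with a pseudocount of 64, with only brighter genes and with quantile normalization, and 0 with the mean of probe sets, with only 2 groups fitted and with array type as a block. The mean of probe sets also gave Tpm2 a value of 0.02 in the Jmjd2c knockdown, where 5 genes rose, Acta2 being lost. Counts here include Tagln and Myl9, which are no test in the Jmjd2b knockdown.

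With each array left out in turn, 8 genes rose and 0 to 1 fell in the Jmjd2b knockdown, 5 to 6 rose and 1 fell in the Jmjd2c knockdown, and 0 rose and 0 to 4 fell between the knockdowns. The value of Cnn1 in the Jmjd2c knockdown lay between -0.08 (without Jmjd2c array 1) and 2.31 (without array 2), that of Tpm2 between -0.18 (without array 1) and 0.04 (without array 2), and that of Actc1 between the knockdowns was -1.12 without Jmjd2b array 2, 0.27 without Jmjd2b array 3 and 0.14 without Jmjd2c array 2. The causes were not tested. Genes near 16, such as Actg2, cannot be resolved at this signal.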
